A study of Homo sapiens with 4 samples.

Results

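The genes described here encode 3 abundant RNAs that carry no polyA tail: 18S ribosomal RNA (5 annotated copies, RNA18SN1 to RNA18SN5), 7SL RNA (RN7SL1 and RN7SL2) and 7SK RNA (RN7SK). They are 8 of the 38137 genes in the count tables. They were picked by name, as tailless RNAs already known from these libraries to be lower in the exercised groups, so their ratios between exercised and sedentary libraries are a description and support nothing by themselves. RNA came from xenografts of A549, a human NSCLC cell line, grown in the flank of male BALB/c athymic nude mice that were 6 weeks old. The combination group ran on a treadmill and was irradiated, the radiation group was irradiated only, the exercise group ran only, and the control group received neither. Radiation was 2 Gy per session, exercise was 30 min at 8.0 m/min before irradiation on the same day, and both were given in 3 sessions per week for 2 weeks. Each group had 5 mice and is represented by 1 library. Whether a library held 1 tumor or several is not given in the sources used here. With 1 library per group no difference was tested. The 95% intervals of folds and shares are exact Clopper-Pearson intervals, and every interval given covers counting error only. A549 is a single tumor cell line, and nude mice lack mature T cells while their muscle, stroma, vessels and myeloid cells remain.

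18S rRNA is the RNA core of the small (40S) ribosomal subunit. RNA polymerase I makes it as part of the 45S precursor, from which 18S, 5.8S and 28S rRNA are cut and the spacers between them are discarded. 7SL RNA, made by RNA polymerase III, is the scaffold of the signal recognition particle (SRP), which brings ribosomes that make secreted and membrane proteins to the endoplasmic reticulum. 7SK RNA, also made by RNA polymerase III, holds the elongation kinase P-TEFb (CDK9 with a cyclin T) inactive together with HEXIM, LARP7 and MEPCE. These are among the most abundant RNAs of a growing cell. The libraries were prepared by polyA selection, so their reads are what remained after a step meant to remove them.

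The 7SK sequence is shown because its gene overlaps no other RefSeq gene, so by position its reads are shared with none. How reads with several positions and mouse reads were counted is not given in the sources used here, so they may be among the 7SK reads. It is taken from GENCODE release 29 for GRCh38 and is written 5′ to 3′ as DNA. RN7SK is a single exon at chr6:52995621-52995948 on the plus strand. Its first 300 bases are printed, chr6:52995621-52995920, with capitals at the longest runs of A of the whole transcript.
RN7SK: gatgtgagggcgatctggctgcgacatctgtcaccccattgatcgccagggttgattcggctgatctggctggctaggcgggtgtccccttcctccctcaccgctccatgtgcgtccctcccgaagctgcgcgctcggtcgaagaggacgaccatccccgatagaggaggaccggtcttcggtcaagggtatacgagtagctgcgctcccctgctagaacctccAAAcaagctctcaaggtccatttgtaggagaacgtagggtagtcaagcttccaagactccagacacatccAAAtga
There are 2 such runs of 3 bases, at positions 225 to 227 and 295 to 297, so the transcript holds no long stretch of A of its own. RN7SL1 and RN7SL2 are near-identical genes on chromosome 14, so the split of reads between them is uncertain and their sum is the firmer value. The 18S sequence was not used here.

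The libraries held 33432637 reads assigned to genes in the combination, 35408705 in radiation, 34304760 in exercise and 34602535 in control. Levels are given in CPM (counts relative to library size after TMM scaling, which sets the bulk of genes equal between libraries), and ratios as folds or on the log2 scale. The A549 epithelial markers, led by the aldehyde dehydrogenase ALDH1A1 and the keratin KRT8, were present in every library at a summed 12863 CPM in the combination, 11847 in radiation, 12519 in exercise and 12104 in control. Markers of alveolar differentiation summed to between 8.21 and 9.77 CPM. Comparisons covered the 19393 genes whose counts averaged 20 or more, and all 8 members were among them.

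The 18S genes took a visible share of every library. Reads of the 5 copies summed to 45826 in the combination, 78019 in radiation, 30540 in exercise and 62660 in control. This was 0.137% of all reads in the combination, 0.220% in radiation, 0.0890% in exercise and 0.181% in control. After scaling, the summed level was 1399 CPM in the combination, 2243 CPM in radiation, 884 CPM in exercise and 1755 CPM in control. Radiation thus stood highest, followed by control, combination and exercise, and every step in that order was larger than its counting error. The 18S level with exercise was 0.504-fold that of control (95% interval 0.497 to 0.511), or -0.99 on the log2 scale. The combination was 0.624-fold radiation (0.617 to 0.631), or -0.68 on the log2 scale. Both exercised libraries were thus below their sedentary partners, by less among irradiated tumors. Radiation alone was 1.28-fold control (1.27 to 1.29), the combination was 1.58-fold exercise (1.56 to 1.61), and the combination was 0.797-fold control (0.788 to 0.807).

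The 5 copies moved as one. Their log2 ratios of exercise against control spanned -1.01 to -0.97, and those of the combination against radiation spanned -0.72 to -0.64. RNA18SN1 had 370 CPM in the combination, 594 in radiation, 231 in exercise and 465 in control. RNA18SN3 had 422 CPM in the combination, 681 in radiation, 267 in exercise and 528 in control. RNA18SN2 had 209 CPM in the combination, 344 in radiation, 135 in exercise and 265 in control. RNA18SN4 and RNA18SN5 kept the same order of libraries, with radiation highest and exercise lowest. RNA18SN4 had 213 CPM in the combination, 335 in radiation, 133 in exercise and 267 in control. RNA18SN5 had 186 CPM in the combination, 290 in radiation, 118 in exercise and 231 in control. Each copy also held a nearly fixed share of 18S reads. RNA18SN1 took 26.2% to 26.5% of them over the 4 libraries, RNA18SN3 30.1% to 30.4%, RNA18SN2 14.9% to 15.3%, RNA18SN4 14.9% to 15.2% and RNA18SN5 12.9% to 13.3%. The copies share reads, so they are not 5 independent measurements. The lengths implied by the deposited counts and FPKM were 1869 bases for RNA18SN2, RNA18SN4 and RNA18SN5 and 3738 bases, or 2 loci, for RNA18SN1 and RNA18SN3. Per kb of loci the copies were closer together, at 61.9 to 72.3 CPM per kb in exercise and 123 to 143 CPM per kb in control. In RefSeq (GRCh38), RNA18SN1 lies on chromosome 21 from 8436876 to 8438744, RNA18SN2 from 8209631 to 8211499 and RNA18SN3 from 8392666 to 8394534.

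7SL RNA had another order of libraries, with control highest. RN7SL1 had 1086 reads in the combination, 1422 in radiation, 733 in exercise and 2612 in control. RN7SL2 had 815 reads in the combination, 1237 in radiation, 652 in exercise and 2325 in control. The control library stood above the other 3 for both genes, and exercise was the lowest. Their summed level was 58.0 CPM in the combination, 76.5 CPM in radiation, 40.1 CPM in exercise and 138 CPM in control. With exercise 7SL was 0.290-fold control (0.273 to 0.308), or -1.79 on the log2 scale. The 2 genes gave -1.79 each, with intervals of -1.91 to -1.67 for RN7SL1 and -1.91 to -1.66 for RN7SL2. In the combination 7SL was 0.759-fold radiation (0.715 to 0.806), or -0.40 on the log2 scale, a much smaller difference. The log2 ratio of the combination to radiation exceeded that of exercise to control by 1.39 (1.27 to 1.51, by a normal approximation to the counting error), against 0.31 (0.28 to 0.33) for 18S. Radiation alone was 0.553-fold control (0.527 to 0.580), whereas the combination was 1.45-fold exercise (1.35 to 1.55). 7SL was thus lower in irradiated than in unirradiated tumors of sedentary mice, and higher in irradiated than in unirradiated tumors of exercised mice. The combination was 0.420-fold control (0.398 to 0.443).

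RN7SL1 held 57.1% (54.9% to 59.4%) of 7SL reads in the combination, 53.5% (51.6% to 55.4%) in radiation, 52.9% (50.3% to 55.6%) in exercise and 52.9% (51.5% to 54.3%) in control. The combination had the highest share, and its interval overlapped those of radiation and exercise but lay above that of control. RN7SL3, a further 7SL gene, had 15 reads in the combination, 15 in radiation, 9 in exercise and 32 in control. It fell under the minimum mean count, and it too was highest in control.

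RN7SK was the least abundant member. It had 78 reads in the combination, 132 in radiation, 40 in exercise and 123 in control. Its level was 2.38 CPM in the combination, 3.80 in radiation, 1.16 in exercise and 3.44 in control. Exercise was the lowest, and radiation and control did not differ beyond counting error (1.10-fold, 0.855 to 1.42). With exercise RN7SK was 0.336-fold control (0.229 to 0.484), or -1.56 on the log2 scale. In the combination it was 0.627-fold radiation (0.468 to 0.836), or -0.67 on the log2 scale. The combination was 2.06-fold exercise (1.39 to 3.09) and 0.691-fold control (0.514 to 0.926). The order of libraries was that of 18S, and the wide intervals follow from the low counts.

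**Figure D1:**
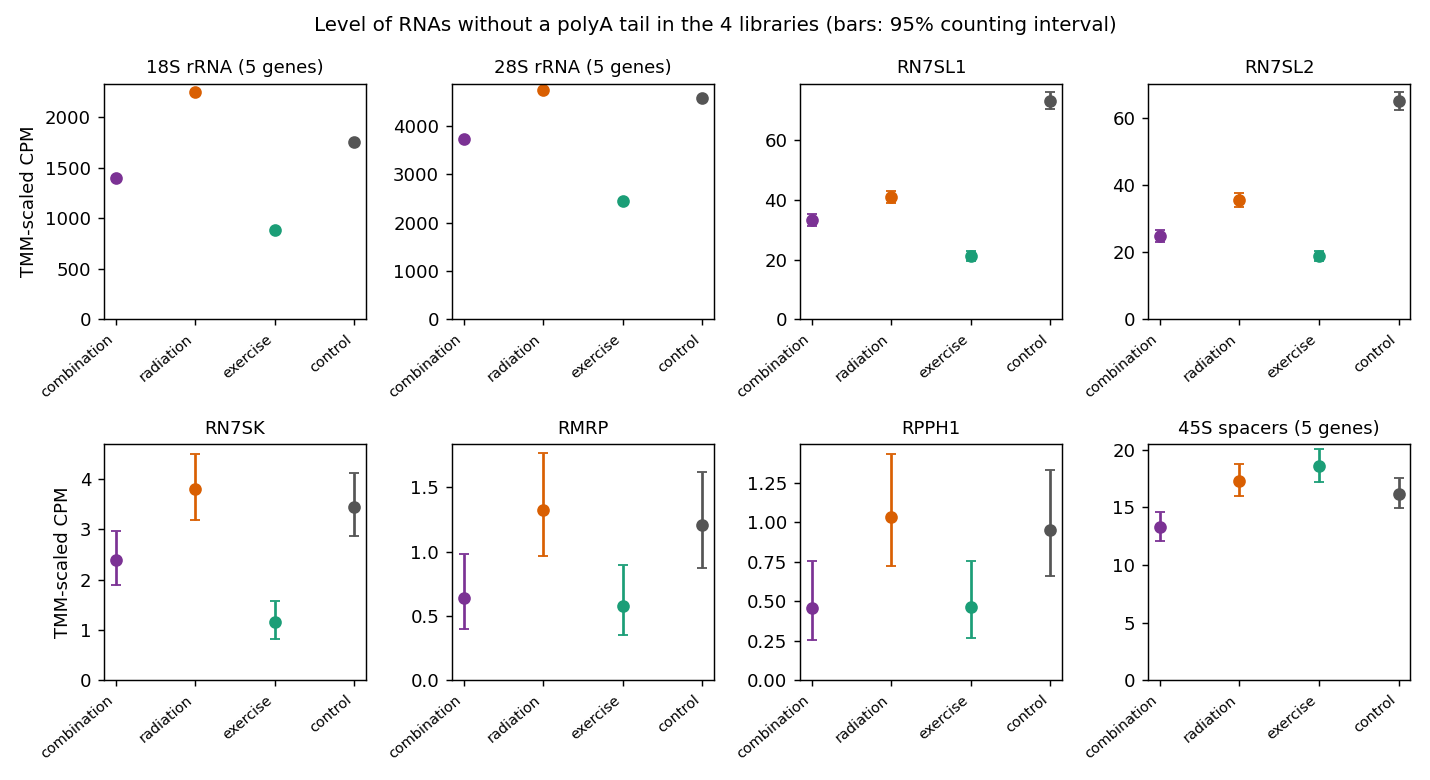
Level in TMM-scaled CPM (vertical axes, starting at 0) of 18S, 28S, RN7SL1, RN7SL2, RN7SK, RMRP, RPPH1 and the summed 45S spacers in the 4 libraries (horizontal axes), with bars for the 95% Poisson counting interval. 18S was highest in radiation at 2243 CPM, RN7SL1 and RN7SL2 were highest in control, and 18S, RN7SL1, RN7SL2 and RN7SK were lowest in exercise, while the spacers were not.

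Counted at the 2-fold threshold, 5 of the 8 members were at least 2-fold lower in exercise than in control, namely RNA18SN1, RNA18SN4, RN7SL1, RN7SL2 and RN7SK. Over all genes compared, 0.701% were. With scaling to total counts the count was 8 of 8, and the share of all genes under that scaling is not given here. None of the 8 was 2-fold higher, where 0.83% of genes were. The other members, RNA18SN2, RNA18SN3 and RNA18SN5, had ratios of -0.97, -0.99 and -0.97 on the log2 scale, so the 18S copies lay along the threshold rather than on different sides of it. No member was 2-fold lower in the combination than in radiation, where 0.887% of genes were, and none was 2-fold higher, where 0.418% were. Between radiation and control none was 2-fold lower, where 0.897% of genes were, and none was 2-fold higher, where 1.89% were. Between the combination and exercise no member was 2-fold lower, where 3.06% of genes were, and RN7SK alone was 2-fold higher, where 2.92% were. Between the combination and control RN7SL1 and RN7SL2 were at least 2-fold lower, where 1.77% of genes were, and no member was 2-fold higher, where 2.27% were. Several of these comparisons share the exercise or the control library, so their counts are not independent.

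The members were next set beside the other RNAs of the same precursor. 28S rRNA, the core of the large subunit, had 122048 reads in the combination, 164829 in radiation, 84691 in exercise and 163540 in control. It was 0.535-fold control with exercise (0.531 to 0.540) and 0.786-fold radiation in the combination (0.780 to 0.792). Radiation alone differed little from control for 28S (1.03-fold, 1.03 to 1.04), unlike the 1.28-fold of 18S. The 18S share of 18S plus 28S reads was 27.3% (27.1% to 27.5%) in the combination, 32.1% (31.9% to 32.3%) in radiation, 26.5% (26.2% to 26.8%) in exercise and 27.7% (27.5% to 27.9%) in control. The radiation library was apart from the other 3, and this held in each of the 5 gene pairs, as in RNA18SN3 with RNA28SN3, where 18S took 29.2% in the combination, 34.4% in radiation, 28.5% in exercise and 29.3% in control. Per kb of loci, 18S stood to 28S as 1.02 in the combination, 1.28 in radiation, 0.977 in exercise and 1.04 in control. 5.8S rRNA, which pairs with 28S in the large subunit, had 150 reads in the combination, 236 in radiation, 178 in exercise and 336 in control. It was 0.547-fold control with exercise (0.454 to 0.659) and 0.675-fold radiation in the combination (0.546 to 0.832). Unlike 18S, 5.8S was lower with radiation alone than in control (0.721-fold, 0.608 to 0.854). In the combination it did not differ from exercise beyond counting error (0.889-fold, 0.711 to 1.11).

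**Figure D2:**
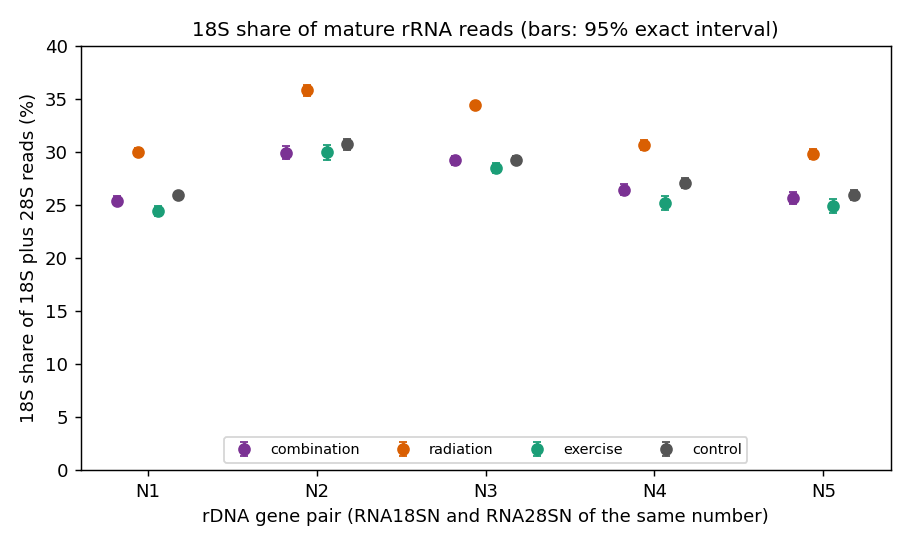
Share of 18S reads among 18S plus 28S reads (vertical axis, percent) for each of the 5 numbered gene pairs (horizontal axis) and library, with 95% exact intervals as bars. In every pair the radiation library was highest, for example 29.2% in the combination, 34.4% in radiation and 29.3% in control for pair N3.

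In the exercise library the spacers did not follow the mature RNAs. The 45S genes span 18S, 5.8S and 28S, and their summed count equalled those of the mature RNAs plus a small remainder, which is taken here as reads of the spacers. This remainder was 434 reads in the combination, 602 in radiation, 641 in exercise and 578 in control. Exercise, lowest for 18S and 28S, had the most spacer reads. The spacers were 1.15-fold control with exercise (1.02 to 1.28) and 0.766-fold radiation in the combination (0.675 to 0.868). The latter value was close to that of 28S, at 0.786-fold, while 18S was at 0.624-fold. They made up 0.258% of 45S reads in the combination, 0.247% in radiation, 0.552% in exercise and 0.254% in control. The 5 copies varied more here than for 18S, and their intervals overlapped. The ratio of exercise to control was 0.959-fold (0.772 to 1.19) for the spacers of RNA45SN1, 0.931-fold (0.669 to 1.29) for RNA45SN2, 1.37-fold (1.08 to 1.73) for RNA45SN3, 1.15-fold (0.888 to 1.49) for RNA45SN4 and 1.46-fold (1.07 to 2.01) for RNA45SN5. 5S rRNA, made by RNA polymerase III, had 3 reads in the combination, 8 in radiation, 6 in exercise and 7 in control over its genes, too few for a difference to be detectable at this depth.

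Other short RNAs without a tail were detected at low counts. RMRP, the RNA of the RNase MRP that cuts the rRNA precursor, had 21 reads in the combination, 46 in radiation, 20 in exercise and 43 in control. It was 0.481-fold control with exercise (0.268 to 0.835) and 0.485-fold radiation in the combination (0.275 to 0.829). RPPH1, the RNA of RNase P that trims tRNA precursors, had 15 reads in the combination, 36 in radiation, 16 in exercise and 34 in control. It was 0.486-fold control with exercise (0.251 to 0.905) and 0.442-fold radiation in the combination (0.225 to 0.829). For both RNAs the exercised libraries were below both sedentary ones. BCYRN1, a neuronal RNA of Alu origin also made in tumors, had 28 reads in the combination, 50 in radiation, 51 in exercise and 60 in control. Its ratio of exercise to control was 0.878-fold (0.593 to 1.30), and its gene lies inside another RefSeq gene. RNU7-1, the U7 snRNA that guides the cutting of histone mRNA ends, had 51 reads in the combination, 43 in radiation, 16 in exercise and 34 in control. It was below control with exercise, and in the combination it was 1.26-fold radiation (0.823 to 1.94). Its gene lies inside C12orf57, so reads of that gene may be among its own.

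Tailless or short-tailed RNAs of other classes had other values. Replication-dependent histone mRNAs typically end in a stem-loop instead of a tail. Whether the histone reads counted here came from such tailless transcripts was not tested. None of the 26 histone genes compared was 2-fold different between exercise and control, where 0.701% of all genes were lower and 0.83% higher. The median log2 ratio of the histone genes was 0.05, while the median of the combination against radiation was 0.39. H2BC12, the most abundant, had 2314 reads in the combination, 1999 in radiation, 1473 in exercise and 1524 in control. The 114 snoRNA and Cajal body RNA genes compared, most of which lie in introns of other genes, had medians of 0.03 for exercise against control and -0.00 for the combination against radiation. They scattered from -0.80 for SCARNA13 to 1.42 for SNORA105A in exercise against control. MALAT1, a nuclear RNA whose end is a triple helix, was 0.992-fold control with exercise (0.973 to 1.01) and 0.871-fold radiation in the combination (0.856 to 0.885). NEAT1, the scaffold of paraspeckles, was 0.751-fold control with exercise (0.740 to 0.761) and 0.975-fold radiation in the combination (0.962 to 0.987). Its count is for the whole gene and does not separate transcripts with a tail from those without. The mitochondrial rRNAs, which carry short A tails, were close to their sedentary partners. RNR1 was 1.06-fold control with exercise (1.04 to 1.07) and 0.960-fold radiation in the combination (0.945 to 0.976). RNR2 was 1.13-fold control with exercise (1.12 to 1.14) and 1.05-fold radiation in the combination (1.04 to 1.05). Mitochondrially encoded genes took 7.34% of reads in the combination, 7.16% in radiation, 7.60% in exercise and 6.34% in control. The median log2 ratio over all genes compared was 0.00 in both exercise comparisons.

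**Figure D3:**
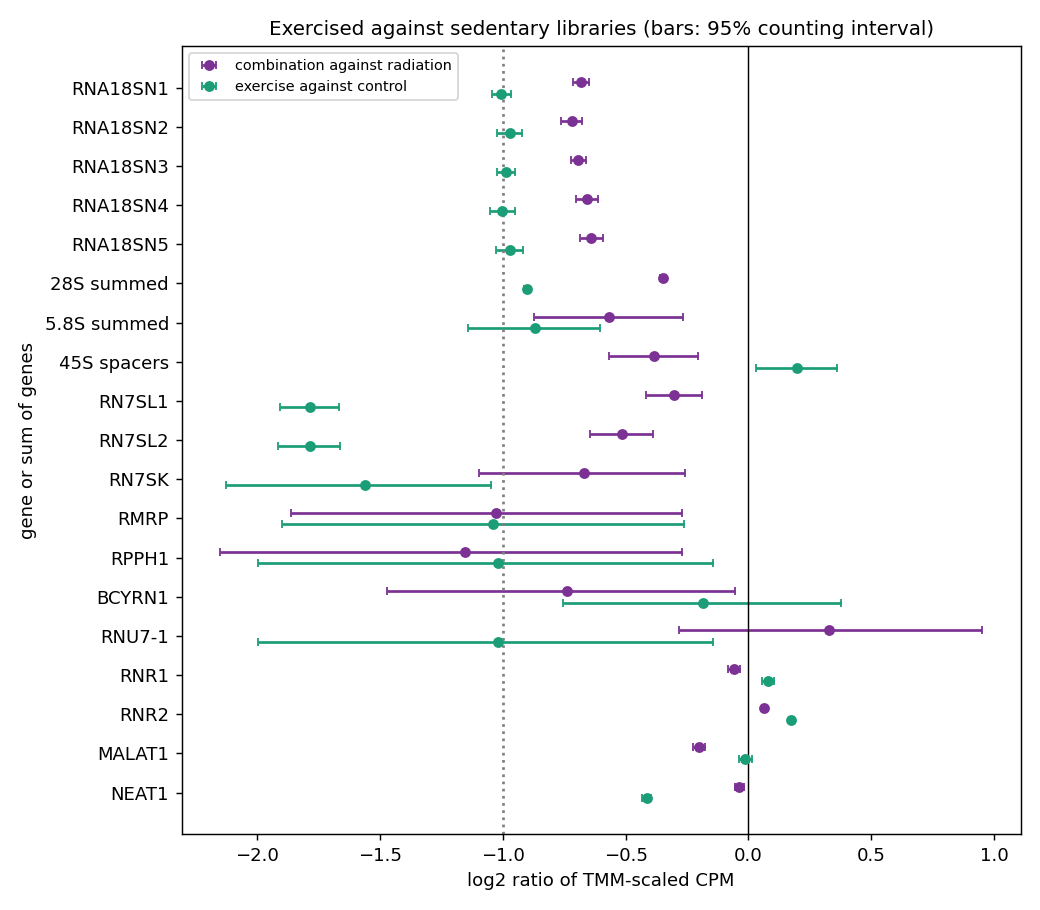
Log2 ratio of TMM-scaled CPM (horizontal axis) of the members and of other RNAs, most of them without a long tail (vertical axis), in the combination against radiation and in exercise against control, with 95% counting intervals as bars and a dotted line at 2-fold lower. RN7SL1 and RN7SL2 lie at -1.79 in exercise against control, the 18S genes lie at the dotted line, and RNR1, RNR2 and MALAT1 lie near 0.

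The mRNAs of the proteins that 7SL and 7SK work with did not share the values of these RNAs. Of 8 genes for SRP proteins and the SRP receptor none was 2-fold different between exercise and control or between the combination and radiation. Over all genes compared, 0.701% were 2-fold lower and 0.83% higher in exercise than in control. In the combination against radiation 0.887% were lower and 0.418% higher, so none of 8 is near these shares. The ratios of exercise to control of the 8 genes spanned -0.15 to 0.11 on the log2 scale. SRP54, the GTPase that binds signal sequences, had 57.0 CPM in the combination, 53.1 in radiation, 49.4 in exercise and 53.9 in control. SRP9 and SRP14 form the dimer that binds the Alu domain of 7SL. SRP9 had 160 CPM in the combination, 139 in radiation, 151 in exercise and 148 in control. SRP14 had 61.7 CPM in the combination, 55.0 in radiation, 52.7 in exercise and 49.8 in control. All 3 lay close to control with exercise, where 7SL was 0.290-fold. SRP19, which helps SRP54 bind 7SL, had 216 CPM in the combination, 191 in radiation, 169 in exercise and 188 in control.

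Of 11 genes of the 7SK particle and P-TEFb none was 2-fold different in either exercise comparison. Over all genes 0.701% were lower and 0.83% higher in exercise than in control, and 0.887% and 0.418% in the combination than in radiation. None of 11 is near these shares. The median of the 11 genes was 0.08 for exercise against control and 0.02 for the combination against radiation. LARP7, which binds the 3′ end of 7SK, was 1.07-fold control with exercise (0.975 to 1.17) and 1.02-fold radiation in the combination (0.932 to 1.13). MEPCE, which caps 7SK, was 1.06-fold control with exercise (0.990 to 1.13). HEXIM1, the inhibitor of P-TEFb, was 1.07-fold control with exercise (1.03 to 1.10), and HEXIM2, its paralog, was 0.835-fold (0.755 to 0.923). CDK9, the kinase, was 1.03-fold control with exercise (0.961 to 1.10), and CCNT1, its main cyclin, was 0.879-fold (0.831 to 0.929).

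The lists of genes that make and mature the members had medians near 0. None of 21 genes of RNA polymerase I and its factors was 2-fold different in either exercise comparison. The same held for 28 genes of RNA polymerase III and its factors and 44 factors of 18S maturation. Over all genes 0.701% were lower and 0.83% higher in exercise than in control, and 0.887% and 0.418% in the combination than in radiation. The counts of these lists are near those shares. The list medians for exercise against control were -0.00, 0.00 and -0.02 on the log2 scale, and those for the combination against radiation were 0.06, 0.00 and 0.04. The RNA polymerase III list had the widest range of the 3 in the combination against radiation, from -0.45 to 0.63. Its highest gene there was SSB, which encodes the La protein that binds the ends of new RNA polymerase III transcripts, named after its values were seen. SSB had 22.8 CPM in the combination, 14.8 in radiation, 19.9 in exercise and 21.1 in control, and the combination was 1.55-fold radiation (1.38 to 1.73). UBTF, the factor that opens rDNA for RNA polymerase I, had 90.7 CPM in the combination, 75.9 in radiation, 103 in exercise and 103 in control. TAF1C, a subunit of the promoter factor SL1, was 1.17-fold control with exercise (1.10 to 1.25). MAF1, the repressor of RNA polymerase III, was 1.01-fold control with exercise (0.964 to 1.06). Among subunits of RNA polymerase III, POLR3C was 1.14-fold (1.03 to 1.25) and POLR3B 0.767-fold control with exercise (0.680 to 0.865). KRR1, a factor of small subunit assembly, was the highest maturation gene at 1.33-fold control with exercise (1.28 to 1.38), and RRP9, a U3 snoRNP protein, the lowest at 0.793-fold (0.676 to 0.929). MYC, which raises transcription by both polymerases, was 1.12-fold control with exercise (1.07 to 1.17) and 1.12-fold radiation in the combination (1.06 to 1.18).

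**Figure D4:**
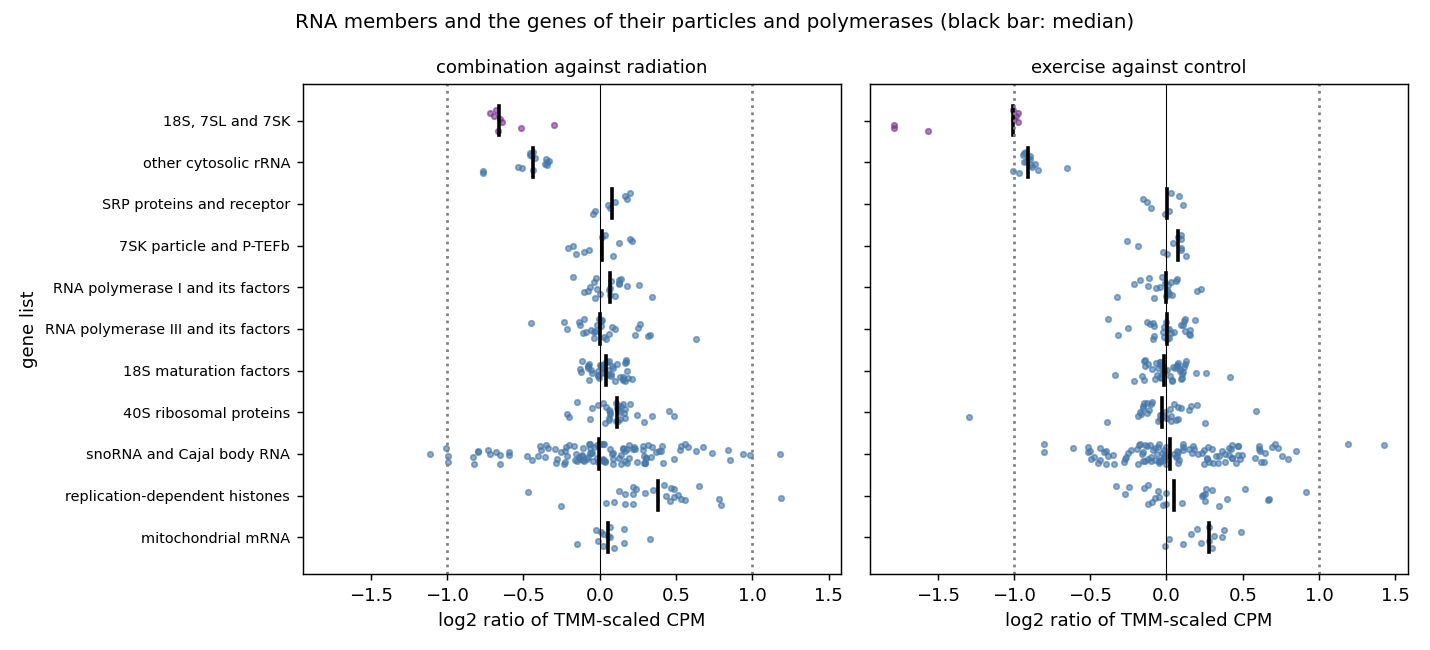
Log2 ratio of TMM-scaled CPM (horizontal axes) of each gene (points) in the members, in the other rRNA genes and in lists of their partner and related genes (vertical axis), for the combination against radiation and for exercise against control, with the list median as a black bar and dotted lines at 2-fold. Members and other rRNA genes lie below 0 in both panels, and among the partner lists RPS29 at -1.29 in exercise against control stands apart.

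Of 33 genes for proteins of the 40S subunit, which surround 18S, 1 was 2-fold lower with exercise and none in the combination against radiation. Over all genes compared, 0.701% and 0.887% were lower in these comparisons. RPS6, the most abundant, was 1.05-fold control with exercise (1.02 to 1.07), and RPS21, the highest, had a log2 ratio of 0.59 (1.23-fold to 1.83-fold). The gene past the threshold was RPS29, at 0.408-fold control (0.382 to 0.436). In RefSeq RPS29 spans bases 49570988 to 49598710 of chromosome 14, and RN7SL1 lies inside it. In GENCODE no RPS29 exon overlaps RN7SL1, the nearest ends 102 bases away, and the 2 genes are on opposite strands. The length implied by the deposited RPS29 values was 27723 bases, its whole span with introns. RPS29 had 1603 reads in the combination, 1957 in radiation, 1271 in exercise and 3216 in control. With the RN7SL1 count taken away, 517 reads remained in the combination, 535 in radiation, 538 in exercise and 604 in control. The remainder was 0.921-fold control with exercise (0.818 to 1.04) and 1.03-fold radiation in the combination (0.908 to 1.16), so the difference in RPS29 was not seen outside the RN7SL1 count.

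**Figure D5:**
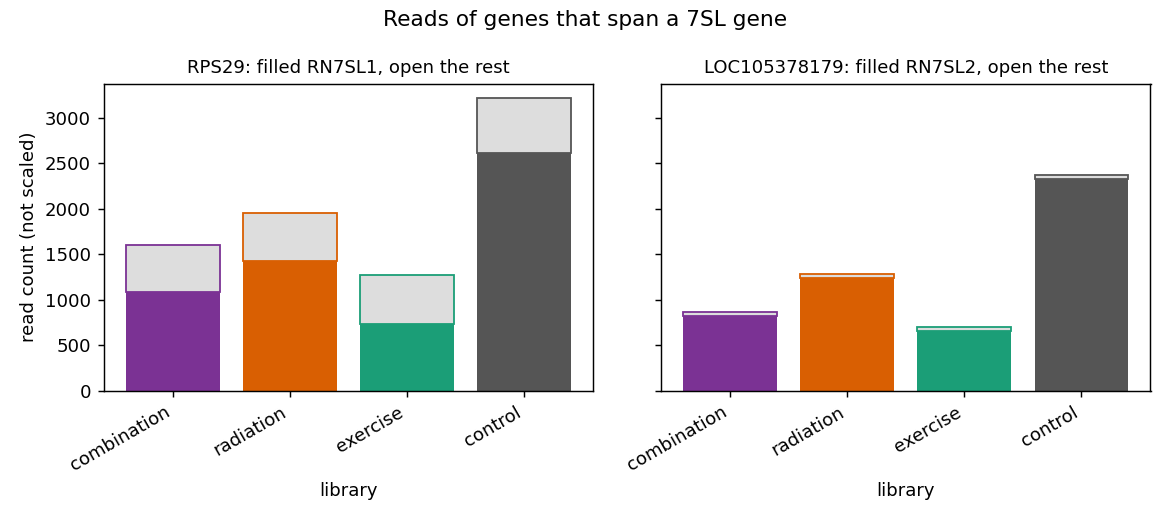
Unscaled read counts (vertical axes) of RPS29 and LOC105378179 in the 4 libraries (horizontal axes), split into the count of the 7SL gene inside each (filled) and the rest (open). The rest of RPS29 lay between 517 and 604 reads and that of LOC105378179 between 41 and 45 reads, while the 7SL counts differed between libraries.

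The same was found at RN7SL2. LOC105378179, which spans bases 49859894 to 49868170 of chromosome 14 around RN7SL2, had 860 reads in the combination, 1278 in radiation, 697 in exercise and 2367 in control. Without the RN7SL2 count, 45 reads remained in the combination, 41 in radiation, 45 in exercise and 42 in control. LOC107987206, for which no position was used here, exceeded RN7SL1 by 2 reads in the combination, 4 in radiation, 3 in exercise and 0 in control. Reads of 1 fragment were thus counted for each gene whose span holds it, without regard to strand for RPS29, and these genes are not further measurements beside 7SL.

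The genes whose pattern over the 4 libraries was nearest to each member were sought among the 13774 genes averaging 200 counts or more, by the distance between centred log2 CPM values. For 7SL the nearest were LOC107987206, LOC105378179 and RPS29, at distances of 0.09, 0.11 and 0.38, all of which hold 7SL reads by the counts above. The next, DZIP1L and LOC105375296, were farther away at 0.66 and 0.64. For 18S and for RN7SK the nearest 5 were the 45S genes, at 0.20 to 0.24 for 18S and 0.51 to 0.54 for RN7SK. The 45S genes include the 18S reads, and RN7SK shares none with them by position. With rRNA genes left out, LOC100507412 was nearest to 18S, and its count was within 76 to 112 reads of that of RNA45SN5. It was followed by the mucin gene MUC17 and the mucin glycosyltransferase gene B3GNT6. MUC17 had 26.8 CPM in the combination, 39.2 in radiation, 18.5 in exercise and 28.7 in control, and B3GNT6 had 19.8 CPM in the combination, 29.7 in radiation, 15.2 in exercise and 27.8 in control. Nearness over 4 libraries is a description of their order only.

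Per kb of loci, 7SL stood at 97.1 CPM per kb in the combination, 128 in radiation, 67.0 in exercise and 231 in control. 18S stood at 107 CPM per kb in the combination, 171 in radiation, 67.6 in exercise and 134 in control, and RN7SK at 7.17 CPM per kb in the combination, 11.4 in radiation, 3.49 in exercise and 10.4 in control. The 7SL value was 0.908 times that of 18S in the combination, 0.746 times in radiation, 0.992 times in exercise and 1.72 times in control. The reads of both are what polyA selection left, so this ratio is one of reads per length in the libraries, and its relation to the levels in the cells was not tested. 7SK made up 3.94% (3.13% to 4.89%) of 7SK plus 7SL reads in the combination, 4.73% (3.97% to 5.58%) in radiation, 2.81% (2.01% to 3.80%) in exercise and 2.43% (2.02% to 2.89%) in control, and the intervals of the combination and exercise overlapped.

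Markers of host cells differed between libraries as well. The reads were aligned to the human genome, and how mouse reads were handled is not given in the sources used here. Skeletal muscle markers summed to 67.5 CPM in the combination, 63.7 in radiation, 26.8 in exercise and 25.5 in control. At 2-fold, 5 of 8 compared were higher in exercise than in control, where 0.83% of all genes were. These 5 had at most 25 reads in exercise and at most 2 in control. They reached the minimum mean count only through the irradiated libraries, so their count is not read as a difference with exercise. The myosin gene MYH4 had 417 reads in the combination, 485 in radiation, 25 in exercise and 1 in control. The other 3 had similar or fewer reads in exercise, at 721 against 739 in control for TTN, 85 against 95 for ACTA1 and 58 against 70 for MB. The defining markers TNNT3 and MYLPF had at most 2 and 5 reads in any library. Fibroblast markers summed to 186 CPM in the combination, 216 in radiation, 336 in exercise and 329 in control. Most of this was COL1A1 and COL1A2. Single markers differed in direction with exercise, as LUM at 1.55-fold control (1.41 to 1.72) and COL3A1 at 0.854-fold (0.792 to 0.921). Macrophage and neutrophil markers summed to 493 CPM in the combination, 430 in radiation, 363 in exercise and 373 in control, with S100A8 at 0 in every library. Of this, CSF1R alone had 251 CPM in the combination, 239 in radiation, 267 in exercise and 278 in control. CD68, LYZ and CD14 were higher in both irradiated libraries than in the unirradiated ones, whereas CSF1R and ITGAM were lower. PTPRC had between 7 and 15 reads and S100A9 between 2 and 8. Endothelial markers summed to 6.90 CPM in the combination, 10.9 in radiation, 15.9 in exercise and 19.8 in control. Most of this was PECAM1, at 5.53 CPM in the combination, 9.60 in radiation, 14.0 in exercise and 18.3 in control. The other endothelial markers had few reads and no common direction. With exercise TEK had 27 reads against 13 in control and KDR 19 against 9, while CDH5 had 15 against 21 and VWF 4 against 8. Erythroid markers had between 19 and 26 reads. The part of these cells in the levels of 18S, 7SL and 7SK was not tested. How completely polyA selection removed tailless RNA in each library was not tested either, and with 1 library per group that step and the treatment cannot be told apart. In these bulk tumors fewer cells of a type and less RNA per cell cannot be told apart.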

How the data were processed

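The authors selected polyA RNA for stranded libraries and aligned the reads to GRCh38 with Bowtie2 2.3.4.1. Trimming with cutadapt is named in the submitters' processing notes, and genes were counted in featureCounts 1.6.0. Not given in the sources used here are the counting options for strand and for reads with several positions, how mouse reads were handled, and whether tumors were pooled. The authors deposited raw read counts per gene, not normalized, and FPKM values.

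CPM were obtained from the counts with TMM scaling in edgeR 4.0.16 (R 4.3.3), with factors of 0.980 in the combination, 0.982 in radiation, 1.007 in exercise and 1.032 in control. Log2 ratios used a prior of 0.5 counts, and genes averaging 20 counts or more were compared at the 2-fold threshold of the study. No test was made, since each group has 1 library. Intervals of folds and shares are exact Clopper-Pearson intervals at 95%, those of differences between log2 ratios use a normal approximation, and those in the plot of levels are Poisson intervals. A count of 0 would allow 3 counts, or 0.0916 CPM in the combination and 0.0840 CPM in control. Implied lengths are the ratio of count to FPKM relative to RN7SL1. The 7SK sequence and exons are from GENCODE release 29 and gene spans from RefSeq, both for GRCh38. The 7SL sequences are not reported here. Members, lists and comparisons were chosen with earlier results of these data known. The named genes are the members, the most abundant, highest and lowest genes of each list, fixed partners and the nearest patterns, of which part is given. RPPH1, RN7SL3, HEXIM2, MYC, SSB, MYH4, ACTA1, TNNT3, MYLPF, LYZ, ITGAM, PTPRC and S100A9 were named after their values were seen. The same holds for LUM, COL3A1, TEK, KDR, CDH5 and VWF. Alternatives were other scalings (total counts, protein-coding counts, and DESeq2 1.42.0 size factors), priors, minimum counts and fold thresholds, and FPKM with 0.1 added. The ratio step was tested on simulated data. Other steps used scipy 1.17.1, pandas 2.3.3 and numpy 2.4.6 under python 3.11.15, with figures drawn in matplotlib 3.10.9.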

Additional observations from a re-analysis of the deposited data

Results flagged for a closer look

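The differences below ran in opposite directions within the design, with both counting intervals apart from no difference. None was tested, since each group has 1 library. The directions are those under TMM scaling, and the smaller ratios may change sign under another scaling. The radiation difference of 7SL had opposite signs without and with exercise. Summed 7SL had a log2 ratio of 0.53 between the combination and exercise and of -0.85 between radiation and control. RN7SL1 gave 0.64 and -0.84, and RN7SL2 gave 0.40 and -0.87 for the same pairs of libraries. The genes whose counts hold 7SL reads followed, with 0.41 and -0.68 for RPS29, 0.64 and -0.83 for LOC107987206, and 0.38 and -0.85 for LOC105378179. SRP9 gave 0.08 and -0.09, and the mitochondrial rRNA RNR2 gave -0.03 and 0.08. The spacers of RNA45SN3 gave -0.73 and 0.55, SSB 0.20 and -0.52, KRT8 0.27 and -0.08, and ALDH1A1 -0.15 and 0.05.

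The exercise difference had opposite signs in irradiated and unirradiated tumors for SRP19, with 0.18 between the combination and radiation and -0.15 between exercise and control. SRP54 gave 0.10 and -0.13, HEXIM2 0.21 and -0.26, the cyclin CCNT2 -0.21 and 0.09, and RNR1 -0.06 and 0.08. The summed 45S spacers gave -0.39 and 0.20, those of RNA45SN3 -0.83 and 0.45, and KRT8 0.25 and -0.10.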

How the results depend on the processing

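No log2 ratio of at least 2-fold in size turned its direction under the alternatives tried. Smaller ratios that changed sign were not counted as reversed. Of 130 values of the sums, RN7SK and the member counts under an alternative, 109 stayed within the counting interval or within 1.5 times the count, 21 moved and 0 reversed, and of 1290 for the lists 1134 stayed, 156 moved and 0 reversed. The log2 ratio of 18S between exercise and control was -1.02 with total counts, -1.02 with protein-coding counts and -1.02 with FPKM, and with total counts 8 members were 2-fold lower instead of 5. Under the same settings it was 0.28, 0.30 and 0.28 between radiation and control, 0.62, 0.62 and 0.62 between the combination and exercise, and -0.40, -0.40 and -0.40 between the combination and control. Between the combination and radiation it was -0.66 with DESeq2 size factors. The 7SL ratio of radiation to control was -0.93 with total counts and -0.93 with FPKM. At 1.5-fold, 8 members were lower in exercise than in control, 6 in the combination than in radiation and 2 in radiation than in control, and at 4-fold 0 were lower in exercise and 0 in the combination than in control. Shares of all genes at these thresholds and under total counts are not given here. These counts thus do not show how common such differences were, and the 18S copies share reads. Leaving out a replicate was not possible. No paired analysis was possible because the groups share fewer than 2 replicate numbers, and a fit over the 4 libraries with radiation as a block was not run. Depth limited RN7SK, RMRP, RPPH1 and 5S rRNA, whose counts were low.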
